A study of Mus musculus with 6 samples.

Results

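Semaphorins, their plexin receptors and the neuropilin co-receptors were described in RNA from microglia, which are the brain's own macrophages, of the mouse rostral nucleus of the solitary tract (NST), the first relay of taste in the brainstem. Every gene of the deposited table whose Ensembl identifier carried a symbol of a class 3 to class 7 semaphorin, of a plexin of the A to D families, or Nrp1 or Nrp2 was taken, whether detected or not. This gave 31 of 26789 genes, of which 20 were semaphorins, 9 plexins and 2 neuropilins. Control mice came from dams kept on standard chow, and E3–E12 diet mice from dams fed a low-sodium diet from embryonic day 3 to embryonic day 12 and standard chow afterwards. Both groups were taken at postnatal day 15, with 3 libraries per group, and each library pooled the NST of 6 littermates of 1 litter, male and female mice together. The study's methods name C57Bl/6 for the controls of its terminal field experiments and do not repeat a strain for the RNA-seq mice. Per the study's methods the cells were selected with magnetic beads against CD11b, a surface protein of myeloid cells, and their RNA was amplified, whereas the sample descriptions name other isolation and library steps, so how the cells were obtained is uncertain. The comparison asked whether the early maternal diet changed the level of these genes in these cells.

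Semaphorins are secreted or membrane-bound guidance proteins that steer growing axons and migrating cells and also act in the immune system. Plexins are their receptors, and pass the signal to small GTPases and the actin cytoskeleton. Most secreted class 3 semaphorins need a neuropilin as a co-receptor beside an A-type plexin, while membrane-bound semaphorins usually bind plexins directly. In the brain these genes are used by neurons, glia, vessels and myeloid cells, and plexins and class 4 semaphorins are known from macrophages and microglia.

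Values are normalized counts per gene, which are comparable between libraries for 1 gene but between genes only per length. The 3 values of a group are printed in the order of replicates 1, 2 and 3. The libraries summed to between 9407141 and 17204618 normalized counts, and the 31 genes took between 0.209% and 0.378% of a library. Control replicate 2 stood apart, with the highest total and with 10640 genes listed at 0 against 3459 to 7135 in the other libraries. A 0 in this library cannot be read as an absent gene, since the ribosomal protein genes Rpl18, Rpl36 and Rps26 were also listed at 0 there. Microglia markers, of which 12 of 12 were measured, summed to 111879, 554501 and 282428 normalized counts in controls and to 109674, 263111 and 360880.0 across E3–E12 diet libraries. Of the microglia markers 0 were listed at 0 in any library. Markers of other cells were present in every library. Summed oligodendrocyte markers lay between 5547 and 44281 normalized counts, oligodendrocyte precursor markers between 563 and 6081, endothelial markers between 4589.9 and 20009.7, and choroid plexus markers between 52.4 and 40558. Single markers were listed at 0 in some libraries, such as Mag of oligodendrocytes in 4 libraries and the endothelial genes Itm2a and Ly6c1 in control replicate 2. The endothelial list was not uniform, since Pecam1 (3154) and Cldn5 (1207) peaked in that same library. All the other endothelial markers were at their lowest there. In such bulk libraries, fewer cells of a type and less RNA per cell cannot be told apart.

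All 31 genes passed the filter of 10 normalized counts on the mean, and 27 were above 0 in every library. Sema3b, Sema3d, Sema3f and Sema4c were listed at 0 in at least 1 library. The mean level was at least 1000 normalized counts in 11 genes and under 100 in 10.

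**Figure D1:**
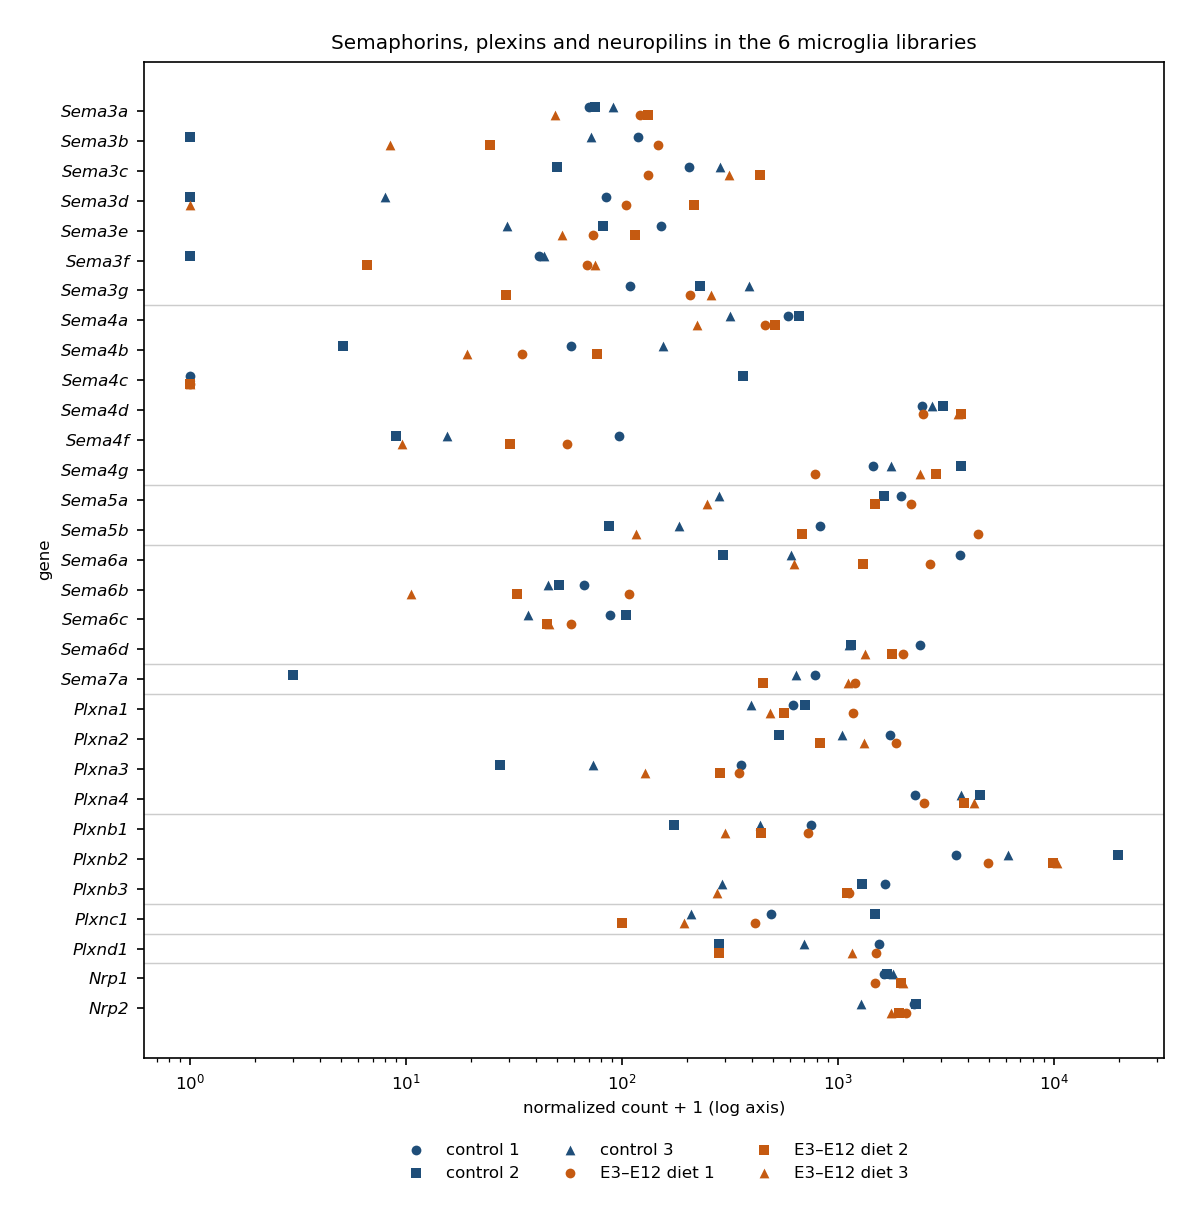
Normalized counts of the 31 semaphorin, plexin and neuropilin genes in each of the 6 libraries, drawn as normalized count + 1 on a log axis, 1 point per library. Plxnb2 reaches 19783 normalized counts, and the 4 genes with a point at 0 are Sema3b, Sema3d, Sema3f and Sema4c.

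Plxnb2 had the highest level per length of the family in all 6 libraries. Divided by the merged length of its annotated exons, it had 1183 ± 762 normalized counts per kilobase (SD, n = 6 libraries), followed by Sema4d with 392 ± 72.4 and Plxna4 with 250.1 ± 66.2. Within each library Plxnb2 was above Sema4d and Sema4d above Plxna4, in 6 of 6 libraries. Across libraries, however, the ranges overlapped in 30 of 30 neighbouring pairs. No other neighbouring pair kept its order in 6 of 6 libraries. Sema4g (250 per kilobase), Sema7a (212), Nrp1 (180), Sema6a (175), Nrp2 (163), Sema6d (155) and Sema5b (149.6) came next, and Sema3a was the lowest with 6.39 ± 2.28 normalized counts per kilobase. These levels per kilobase rest on annotated exons and not on the transcripts in use, which total counts per gene do not show.

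**Figure D2:**
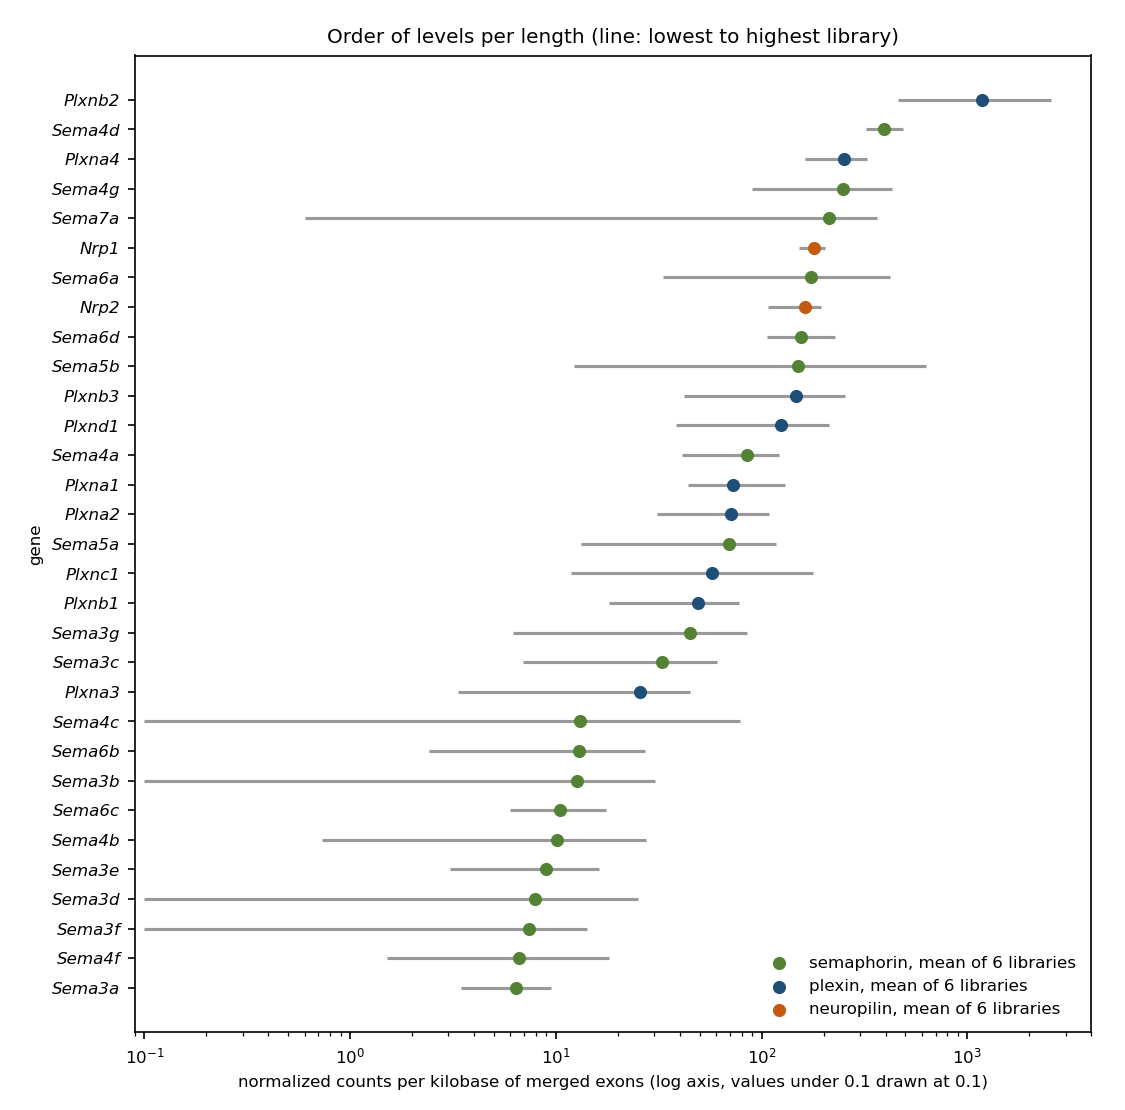
Normalized counts per kilobase of merged exon for the 31 genes, ordered by their mean over the 6 libraries, on a log axis. Each point is the mean of the 6 libraries, and each line runs from the lowest to the highest library. Plxnb2 lies at the top, with a line from 459 to 2563 normalized counts per kilobase.

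None of the 31 genes passed the test between the diets. With limma on log2(normalized count + 1) and Benjamini-Hochberg adjustment over all 18007 genes tested, 0 of the 31 had an adjusted p under the study's threshold of 0.1 (background 0% of all genes), and each had an adjusted p of 0.999. At an unadjusted p under 0.05 the count was also 0, beside 1.82% of all genes tested. The 3 control and 3 E3–E12 diet libraries overlapped in every one of the 31 genes, whereas 5.9% of all genes did not overlap. The mean log2 level was higher in E3–E12 diet mice for 22 genes and lower for 9, and 54.4% of all genes tested were higher. This balance was not stable, with 17 of 30 genes higher without control replicate 2, 17 of 31 without E3–E12 diet replicate 1 or 2, and 18 of 31 without control replicate 3. The log2 fold change, E3–E12 diet minus control, had a median of 0.09 over the family and 0.09 over all genes. It exceeded 1 in either direction in 7 of the 31 genes, Sema4c with a group listed at 0 among them, beside 28.9% of all genes tested. The median standard error was 0.92 in the family, so that changes of this size could not be detected in single genes.

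**Figure D3:**
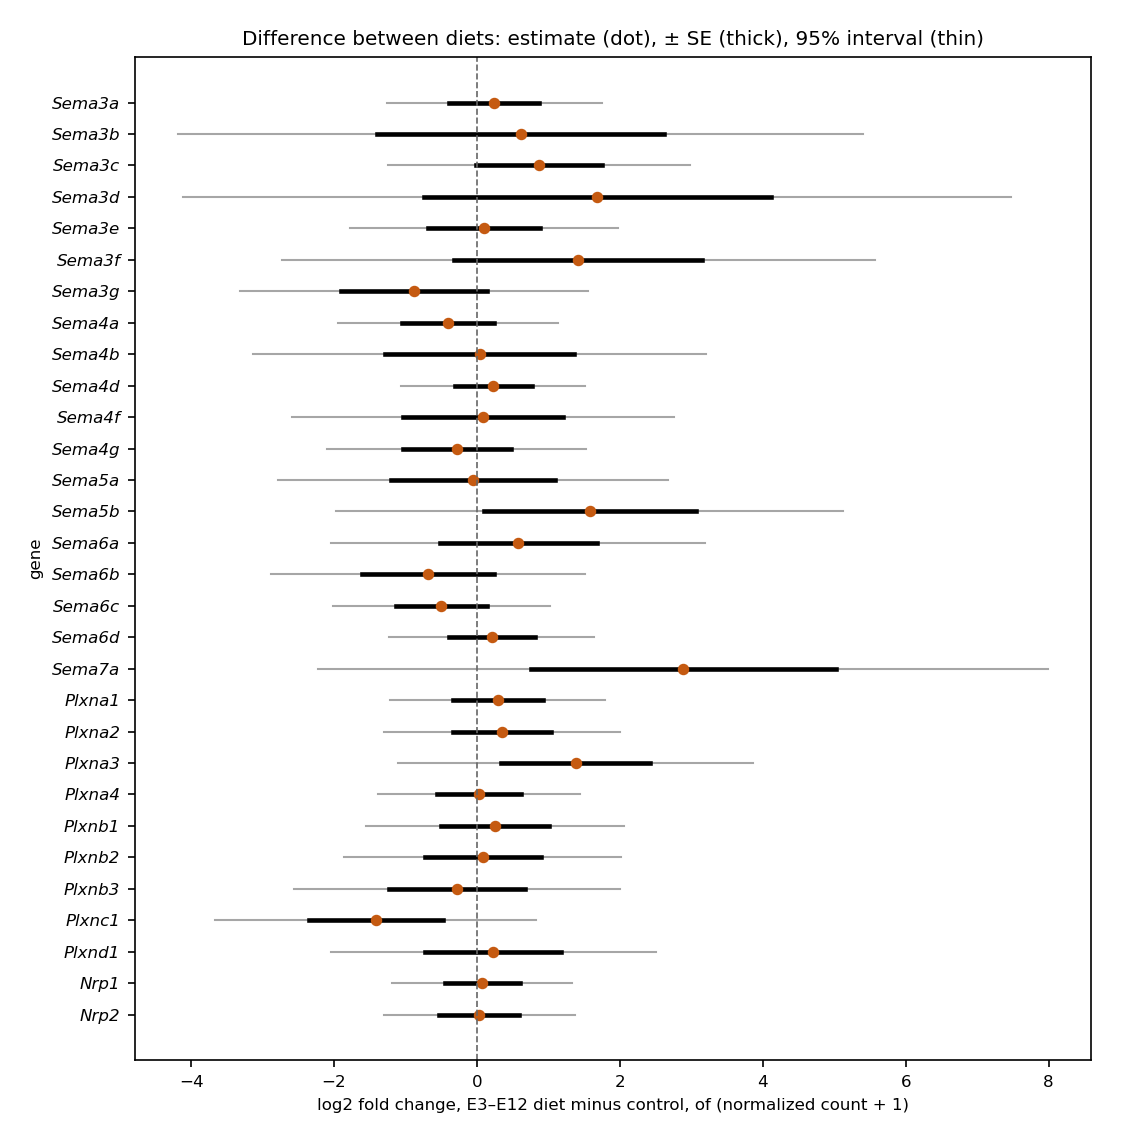
Log2 fold change of E3–E12 diet against control for 30 of the 31 genes, with 95% intervals from limma. Sema4c is left out because all E3–E12 diet libraries are listed at 0, and the interval of every gene drawn includes 0.

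The secreted class 3 semaphorins were among the lowest genes of the family. Sema3a, a repellent of axons that acts through Nrp1, had 69.1, 73.9 and 89.4 normalized counts for the 3 controls and 119.9, 131 and 48.1 for the 3 E3–E12 diet libraries. The E3–E12 diet libraries lay on both sides of the controls. Sema3d had 83.4, 0 and 6.97 normalized counts in controls and 103, 214 and 0 in E3–E12 diet mice, with a library listed at 0 in each group (log2 fold change 1.69, standard error 2.42, limma adjusted p = 0.999). Its log2 fold change ranged from 0.12 without control replicate 2 to 4.10 without E3–E12 diet replicate 3, and was 0.22 without E3–E12 diet replicate 2. Sema3f, which acts through Nrp2, had 40.2, 0 and 42.5 against 68, 5.61 and 73.8 normalized counts (log2 fold change 1.42, standard error 1.74, limma adjusted p = 0.999). Without control replicate 2, where it is listed at 0, the log2 fold change of Sema3f was -0.38. Of the remaining class 3 genes, Sema3b ranged from 0 to 146 normalized counts, Sema3c from 49.2 to 433, Sema3e, the ligand of Plxnd1, from 28.4 to 151, and Sema3g from 28.1 to 385. The mean log2 level of 6 of the 7 class 3 genes was higher in E3–E12 diet mice, none of which passed the test.

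The membrane-bound class 4 semaphorins held the ligand with the highest level per length. Sema4d (chr13:51685529-51793747), also called CD100, a ligand of Plxnb1 and of CD72 on immune cells, had 2456, 3084 and 2728 normalized counts for the 3 controls and 2477, 3718 and 3615 for the 3 E3–E12 diet libraries. The control range lay within that of the E3–E12 diet libraries except for control replicate 1, which was the lowest by a small margin. The log2 fold change was 0.23 with a standard error of 0.54 and a 95% interval from -1.06 to 1.52 (limma adjusted p = 0.999, exact permutation p = 0.3). Sema4d was among the steadiest genes measured, since its SD within groups, 0.26 on the log2 scale, was undercut by 1.64% of all genes tested. Genes averaging 1000 normalized counts or more had a median SD within groups of 0.70. Sema4g, a ligand of Plxnb2, had 1455, 3736 and 1766 normalized counts in controls and 780.3, 2839.7 and 2399.9 in E3–E12 diet mice. Sema4a, which acts on T cells, had 588, 657 and 314 against 460.0, 509 and 222 normalized counts. Sema4c, likewise a ligand of Plxnb2, was listed at 0 in every library but control replicate 2, where it had 362 normalized counts, and 5.93% of its windows of 50 bases occur in other annotated genes. Sema4b ranged from 4.11 to 155 and Sema4f from 7.96 to 95.9 normalized counts.

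The class 5 semaphorins spread widely within each diet. Sema5a, a transmembrane protein with thrombospondin repeats that binds Plxnb3, had 1962, 1628 and 279.9 normalized counts for the 3 controls and 2184, 1481 and 246 for the 3 E3–E12 diet libraries. Replicate 3 was low in each group, and the groups overlapped. Sema5b had 827, 86.4 and 182 normalized counts in controls and 4463, 683 and 115 in E3–E12 diet mice. E3–E12 diet replicate 1 was 51.6 times control replicate 2 and above all other libraries (log2 fold change 1.58, standard error 1.48, limma adjusted p = 0.999). With 1 library left out at a time, the log2 fold change of Sema5b ranged from 0.25 to 2.88. Summed oligodendrocyte precursor markers were 4376, 1922 and 563 normalized counts in controls and 6081, 5628 and 679 in E3–E12 diet mice, highest in the library where Sema5b was highest but nearly as high in E3–E12 diet replicate 2, where Sema5b was much lower. E3–E12 diet replicate 1 was also the highest in summed choroid plexus (40558), fibroblast (4198) and astrocyte (9914) markers. The part of any of these markers in the values of Sema5b was not tested.

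Among the class 6 semaphorins, Sema6a, a ligand of Plxna2 and Plxna4, had 3686, 292 and 606 normalized counts in controls and 2679, 1309 and 622 in E3–E12 diet mice. Replicate 1 was the highest in both groups. Sema6d, a ligand of Plxna1, had 2406, 1145 and 1124 against 2001, 1781 and 1335 normalized counts. Sema6b ranged from 9.55 to 107 and Sema6c from 35.6 to 104 normalized counts, and of the 4 class 6 genes 2 had a higher and 2 a lower mean log2 level with the E3–E12 diet, with no gene past the test.

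Sema7a (chr9:57940112-57962865), a GPI-anchored semaphorin that binds Plxnc1 and integrins containing the beta 1 chain, showed the largest difference of the family in its fitted value. It is on the study's list of genes higher in E3–E12 diet mice, called there with DESeq2, another test than limma, at an adjusted p under 0.1. That list was chosen on these same libraries and is therefore not independent evidence. It had 785, 1.99 and 637 normalized counts for the 3 controls and 1200.3, 449 and 1114 for the 3 E3–E12 diet libraries. E3–E12 diet replicate 2 lay below 2 of the 3 controls, so the groups overlapped. The log2 fold change was 2.88 with a standard error of 2.13 and a 95% interval from -2.22 to 7.99 (limma adjusted p = 0.999, exact permutation p = 0.3), where 3 libraries against 3 allow no exact p below 0.1. This value rested on control replicate 2, and without it the log2 fold change was 0.26.
The receptor of Sema7a, Plxnc1, had 489, 1491 and 207 normalized counts in controls and 411, 98.9 and 193 in E3–E12 diet mice. Control replicate 2 was 3.05 times the next highest library, and the other controls overlapped with the E3–E12 diet libraries. The log2 fold change of Plxnc1 was -1.42 with a standard error of 0.94 (limma adjusted p = 0.999, exact permutation p = 0.2) and -0.68 without control replicate 2. Itgb1, the integrin beta 1 chain, had 739, 2376 and 866 normalized counts in controls and 1681, 2193 and 3343 in E3–E12 diet mice, again with overlap (log2 fold change 1.01, standard error 0.69, limma adjusted p = 0.999). Like Sema7a, Itgb1 is on the study's list of higher genes, which was chosen on these same libraries.

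The A-type plexins were detected in every library. Plxna4 had 2281, 4563 and 3708 normalized counts for the 3 controls and 2505, 3831 and 4279 for the 3 E3–E12 diet libraries, and the group means were 3517 ± 1153 and 3538 ± 923 (SD, n = 3 libraries each). Plxna1 had 617, 705 and 396 against 1174, 563 and 482 normalized counts, with E3–E12 diet replicate 1 the only library above all controls (log2 fold change 0.29, standard error 0.63, limma adjusted p = 0.999). 7.06% of the 50-base windows of its exons are shared with other genes of the annotation, more than for any other plexin, and reads there are uncertain. An antisense gene, Gm26811, overlaps 10.7% of its exons. Windows were matched on either strand, so stretches in common with Gm26811 count among the shared windows. On myeloid cells Plxna1 works with the receptor Trem2 and its signalling adaptor Tyrobp. Trem2 had 908, 5186 and 4133 normalized counts in controls and 918, 2850.4 and 4467 in E3–E12 diet mice (log2 fold change -0.25, standard error 0.96, limma adjusted p = 0.999). Tyrobp had 182, 59.5 and 1494 normalized counts in controls and was listed at 0 in all 3 E3–E12 diet libraries, so no fold change is given. Tyrobp is an abundant transcript of microglia, and the values listed for it stand beside microglia markers that were present in the same E3–E12 diet libraries. Plxna2 had 1737, 534 and 1046 against 1858, 823 and 1320.2 normalized counts, and Plxna3 had 354, 26.3 and 72.6 against 347, 283 and 127. For Plxna3 the log2 fold change was 1.38 with a standard error of 1.04 (limma adjusted p = 0.999), and replicate 1 was the highest library of each group. The fold change was 0.53 without control replicate 2 and ranged up to 2.38 with other libraries left out.

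Plxnb2 (chr15:89155549-89180788), a receptor of Sema4c and Sema4g, had 3541, 19783 and 6168 normalized counts for the 3 controls and 4973, 9941 and 10374 for the 3 E3–E12 diet libraries. The controls held both the highest and the lowest library, and control replicate 2 was 1.91 times the next highest. The log2 fold change was 0.08 with a standard error of 0.81 and a 95% interval from -1.86 to 2.02 (limma adjusted p = 0.999, exact permutation p = 1). Leaving out any 1 of control replicate 1, control replicate 3 and E3–E12 diet replicates 2 and 3 turned it below 0, with a range from -0.46 to 0.78 over the 6 libraries left out in turn. Plxnb1, the receptor of Sema4d, had 746, 173 and 433 against 726, 438 and 298 normalized counts. Plxnb3 had 1646, 1286 and 288 against 1130.4, 1103 and 274 normalized counts, and like its ligand Sema5a was lowest in replicate 3 of each group. Plxnd1, the receptor of Sema3e known from blood vessels, had 1551, 282 and 694 against 1504, 280.3 and 1160.4 normalized counts.

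Nrp1 was the steadiest gene of the family. Nrp1 (chr8:128358604-128503363), the co-receptor of Sema3a and of vascular endothelial growth factor, had 1642, 1687 and 1799 normalized counts for the 3 controls and 1486, 1954 and 1992 for the 3 E3–E12 diet libraries. Its SD within groups was 0.17 on the log2 scale. The median SD was 1.07 over all genes tested and 0.70 over genes averaging 1000 normalized counts or more. A smaller SD within groups than that of Nrp1 was found in 0.394% of all genes tested. The log2 fold change was 0.07 with a standard error of 0.53 and a 95% interval from -1.18 to 1.33 (limma adjusted p = 0.999, exact permutation p = 0.7), so a change of up to about that size remains within the interval. Nrp2, the co-receptor of Sema3f, had 2256, 2301 and 1278 against 2074, 1924 and 1769.6 normalized counts (log2 fold change 0.03, standard error 0.56, limma adjusted p = 0.999). The highest library was at most 3 times the lowest in 9 of the 31 genes, beside 18.7% of all genes tested and 39.8% of genes averaging 1000 normalized counts or more.

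The libraries differed in their cell type markers, and the patterns set beside them here were chosen after the values were seen. The 2 libraries lowest in summed microglia markers, control replicate 1 and E3–E12 diet replicate 1, were the 2 lowest for Nrp1, Plxna4, Plxnb2, Sema4d and Sema4g, 5 genes or 16.1% of the family beside 11.5% of all genes. All 5 average over 1000 normalized counts, where 40.9% of genes had this pattern and 5 of 11 members did, so the share lies near that of other genes at such levels. Control replicate 1 and E3–E12 diet replicate 1 also had the lowest totals, 9671119 and 9407141 normalized counts. They were lowest in summed border-associated macrophage markers as well, with 4969 and 4693 normalized counts. Per 1000 counts of summed microglia markers, the highest library exceeded the lowest 2.08-fold for Plxnb2, 2.78-fold for Plxna4, 4.06-fold for Sema4d and 4.82-fold for Nrp1. The 2 libraries lowest in summed oligodendrocyte and precursor markers, replicate 3 of each group, were the 2 lowest for Nrp2, Plxna1, Plxnb3, Sema3e, Sema4a and Sema5a, 6 genes or 19.4% beside 6.74% of all genes. Among genes averaging over 1000 normalized counts, 3.71% had this pattern. Replicate 3 of each group was also lowest in summed neuron markers, with 1189.5 normalized counts in the control and 1039.7 in the E3–E12 diet library. Control replicate 2 was the lowest library of 11 genes, among them Sema6a and Sema7a, which at 35.5% is close to the 33.8% of all genes. It was lowest in summed endothelial markers, although highest in Pecam1 and Cldn5 of that list, and in summed mural (1613) and astrocyte (1738) markers. It also had the most genes listed at 0. The part of these markers in the values was not tested.

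**Figure D4:**
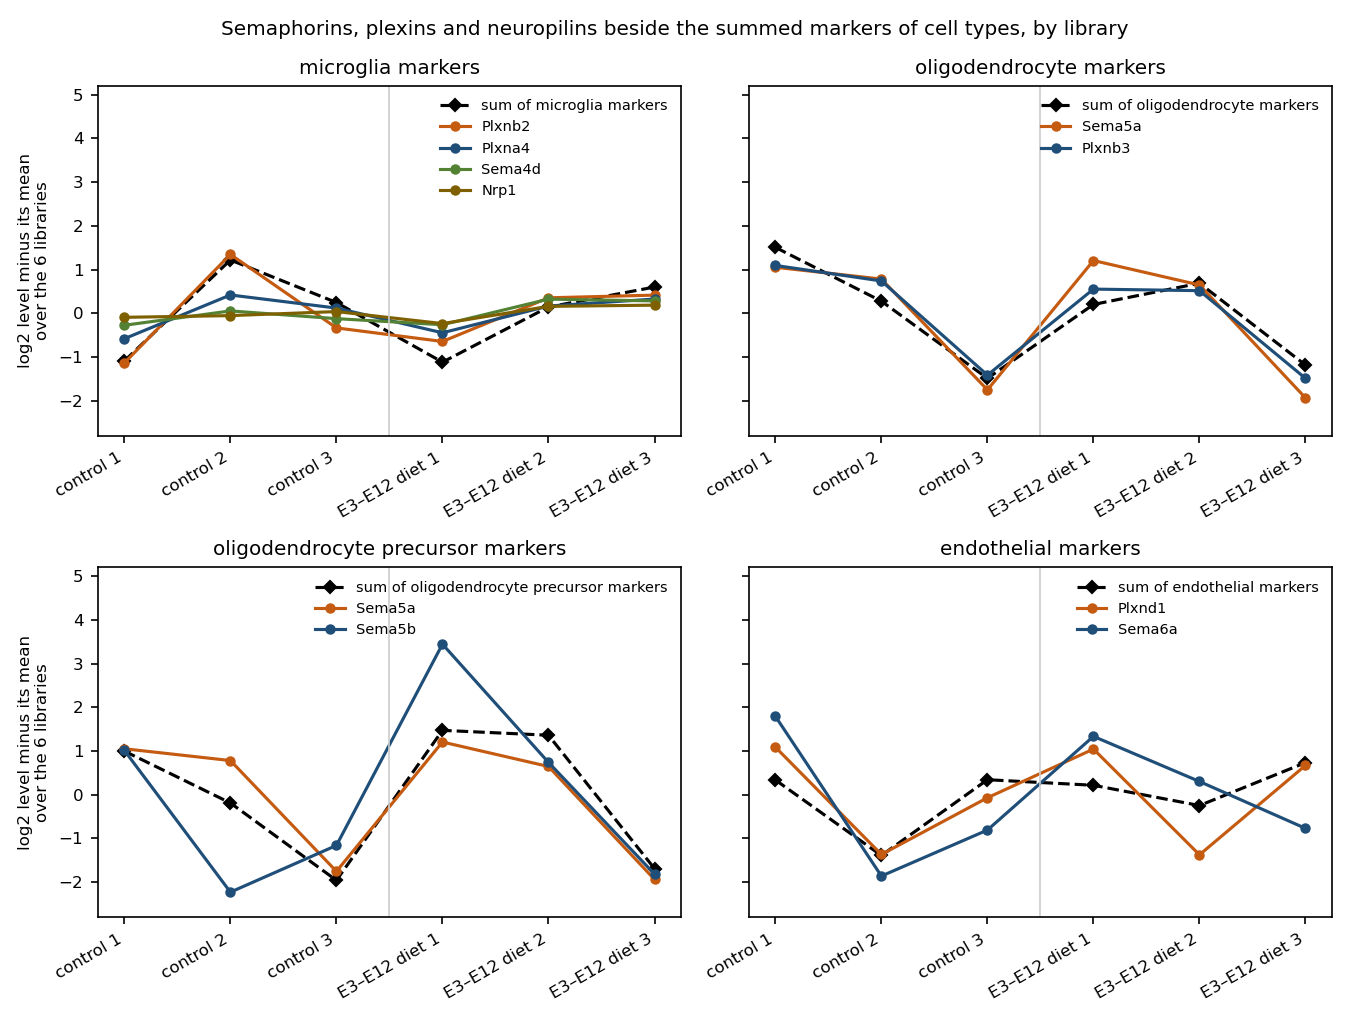
Log2 level minus its mean over the 6 libraries for the summed markers of 4 cell types (black, dashed) and for members of the family (coloured), by library. Sema5a and Plxnb3 are low in replicate 3 of both groups, where oligodendrocyte markers summed to 5547 and 6849 normalized counts, and Plxnb2 is highest in control replicate 2, where microglia markers summed to 554501. Summed neuron markers, not drawn, were also lowest in replicate 3 of both groups.

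Other genes of semaphorin signalling, a list of 48 further receptors, ligands of neuropilins, cytoplasmic effectors and proteases, gave the same count of 0 past the adjusted threshold among the 47 tested. Their mean log2 level was higher in E3–E12 diet mice for 26 genes and lower for 21, with a median log2 fold change of 0.11 beside 0.09 over all genes. At an unadjusted p under 0.05, 1 gene was higher, Cntn2 (beside 0.95% of all genes). In the other direction (0.866% of all genes) there was only Tyrobp, which passed the filter on low values through its controls alone and, listed at 0 in the E3–E12 diet libraries, is not read as a call. Cntn2, an adhesion protein of axons and oligodendrocytes, had 20.9, 12 and 42.9 normalized counts for the 3 controls and 202, 335 and 115 for the 3 E3–E12 diet libraries. Each E3–E12 diet library exceeded each control (log2 fold change 3.10, standard error 0.73, limma adjusted p = 0.999, exact permutation p = 0.1). Cntn2 is also on the study's list of higher genes, which was chosen on these same libraries and is not independent evidence. Ranbp9, a scaffold protein that binds plexins, had 939.7, 2059 and 1171 against 341, 522 and 725 normalized counts, and each E3–E12 diet library was below each control (log2 fold change -1.37, standard error 0.63, limma adjusted p = 0.999). The groups thus did not overlap in 1 of the 47 genes with E3–E12 diet mice higher, beside 2.99% of all genes, and in 1 with them lower, Ranbp9, beside 2.91%, with Tyrobp left aside.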

How the data were processed

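RNA-seq was measured in 6 libraries, 3 per diet, grouped by the labels. The authors deposited 1 table of normalized counts per gene, a scaled signal and not raw reads. The submitters' processing notes name FastQC, STAR, featureCounts, DESeq2 and GRCm38 without versions, the name of the table mentions surrogate variables whose use is not stated, and strandedness is not stated. Whole reads could not be recovered from the values, so the depth behind each value is unknown and no count test was run, although it had been planned as an alternative. Scaling between libraries and any such adjustment can move all values of a library together.

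Genes were matched to GENCODE M21 (26507 of 26789). For 18007 genes averaging 10 normalized counts or more, log2(normalized count + 1) was compared with limma 3.58.1 in R 4.3.3 (two-sided, Benjamini-Hochberg over all genes, threshold 0.1), tested on simulated data. Log2 fold changes understate those of low genes. Exact permutation tests used all 20 splits. p-values measure the spread between these libraries, each 1 litter. Levels per kilobase used merged exons, and 50-base windows shared with other genes on either strand were counted. The study's methods give reads of 50 bp and the labels 75 bp. Windows of 75 bases were not counted. Full statistics were given for genes with unadjusted p under 0.05 or groups that do not overlap, Sema7a with Plxnc1 and Itgb1, Plxna1 with Trem2 and Tyrobp, Nrp1, Nrp2, Plxnb2, Sema4d and the 5 largest fold changes, without genes of which a group is listed at 0. The statistics of Plxna3 were given outside this rule. Members, gene lists and tests were chosen with earlier results of these data known. The results do not give the ranges of the other marker lists, summed per library. These were 4693 to 17396 normalized counts for border-associated macrophages, 1613 to 15357 for mural cells, 492 to 4198 for fibroblasts and 1738 to 9914 for astrocytes. They were 1039.7 to 2959 for neurons, 56.7 to 134 for ependymal cells, 389 to 3007 for neutrophils, 2.31 to 125 for erythroid cells and 7.94 to 338 for lymphocytes.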

Additional observations from a re-analysis of the deposited data

How the results depend on the processing

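Under 15 alternative settings (other pseudocounts, filters and scalings, a replicate block, a covariate, a prior variance following the mean level that was chosen after seeing the data, and each library left out in turn) no member of the family had an adjusted p under 0.1 from limma. With 50 normalized counts as the lowest mean kept, 1 gene passed over the whole table, Prdm4, which is no member. With the first residual principal component as a covariate, 2 members had an unadjusted p under 0.05, Sema4c and Sema7a, and the p of Sema4c is not read as a call, since it rests on the 1 library where the gene is above 0. Leaving out 1 library at a time gave 0 to 1 such members, Plxna3 being the 1, without control replicate 1. Over the libraries left out in turn the log2 fold change ranged from -0.46 to 0.78 for Plxnb2, from -0.38 to 2.56 for Sema3f, from -1.03 to 0.41 for Trem2, from -0.25 to 0.18 for Nrp2, from -0.096 to 0.55 for Plxna1 and from -0.0034 to 0.21 for Nrp1. The cause was not tested. Scaling to equal totals moved the median log2 fold change of all genes from 0.09 to 0.20 and that of the family to 0.21, and quantile normalization moved them to -0.0034 and 0.21. With the replicate block, 0 genes passed (smallest adjusted p = 0.980), 468 had an unadjusted p under 0.05, and of the 31 members 0 did. Same-numbered libraries deviated together with correlations across genes of 0.260, 0.0348 and 0.142. Control replicates 1 and 3 correlated best with the E3–E12 diet library of the same number. Control replicate 2 correlated best with E3–E12 diet replicate 3 (0.0869). The labels give no link between same-numbered libraries beyond the number, and whether they share a batch was not tested. The planned count tests, edgeR and DESeq2, were not run, since whole reads could not be recovered.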

Other observations

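Genes on the opposite strand overlap exons of 4 members, and since strandedness is not stated, reads of the overlapping stretches cannot be told apart. Gm26811 covers 10.7% of the exons of Plxna1 and had 24.7, 107.7 and 32.8 normalized counts for the 3 controls and 71.5, 22.5 and 6.63 for the 3 E3–E12 diet libraries. D430040D24Rik covers 7.27% of those of Sema4c and had 36.6, 113 and 9.31 against 21.4, 1.13 and 45.4 normalized counts. It was highest in control replicate 2, the library with the only value of Sema4c above 0. Gm7628 covers 2.68% of those of Plxnb1 and had 29.4, 39.6 and 52.4 against 94.1, 19.1 and 66.3 normalized counts. Plxna4os3 covers 0.78% of those of Plxna4 and had 1.56, 0 and 2.35 against 3.19, 4.45 and 11.95 normalized counts, below the filter on low values and not tested. The groups overlapped for the other 3 genes.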
